A study of Mus musculus with 12 samples.

Results

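On the 19 mouse autosomes, 363 stretches of chromatin carried OCT4 peaks packed so closely that at least 8 of them followed each other with no gap over 12.5 kb. These dense clusters were found by a fixed rule in the deposited list of OCT4 peaks: peaks of 1500 bp or more were set aside, the rest were joined wherever neighbours lay at most 12500 bp apart, and joined sets of 8 or more peaks were kept. The clusters held 3746 of the 50349 autosomal peaks under the width limit, or 7.44%, and the whole list counted 53675 peaks. Since the rule used peak positions and widths, the number of peaks, the span, the density and the gaps of a cluster are descriptions and not results of a test.

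The peaks came from chromatin immunoprecipitation with sequencing (ChIP-seq) in iXist-ChrX-Cast, a female mouse embryonic stem cell (mESC) line of strain Dom/129S x Cast in which doxycycline switches on Xist RNA from a TetOn promoter on an X chromosome. The series had 12 libraries, with 2 replicates each of OCT4, YY1 and input chromatin at day 0, without doxycycline, and at day 6 of 1 µg/ml doxycycline. All groups shared the same line, kept in serum and LIF on feeder cells that were removed before the experiment, so the data describe 1 engineered line. The OCT4 list pools the 4 OCT4 libraries of both days (antibody clone C3OA3C1, against OCT4A) and holds positions only. It gives no peak height, read count or value per library, so neither the replicate error nor a difference between day 0 and day 6 could be computed on the autosomes, and the depth behind each peak is unknown.

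OCT4, encoded by Pou5f1, is a POU-domain transcription factor that keeps mESCs pluripotent. It binds the octamer, an 8-base DNA element, and in these cells often does so beside SOX2 on a joined SOX-OCT element. Regions where such factors bind many neighbouring elements have been described around genes that define stem cell identity, often under the names enhancer cluster or super-enhancer. Those names rest on the strength of a signal, which the list does not hold, and are not used here.

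The motif-bearing sequences of 12 clusters are shown first, because they show what a match to OCT4's elements looks like inside a cluster. Each was taken from the mm10 reference (RefSeq GRCm38.p6) and is written 5′ to 3′ on the strand that reads the element. Each is the match of its kind nearest to a peak centre in that cluster, with a composite shown wherever the cluster held one. Capitals mark the element, either the SOX-OCT composite TTGTNATGC (N is any base) or the octamer ATGCAAAT or ATGCTAAT. Names give the cluster, what the RefSeq annotation has at the peak, and the position and strand. In the Cd9 and Tbx3 clusters the intron shown lies outside the named gene, in an lncRNA gene.
Sox2, intron of the lncRNA gene Sox2ot, chr3:34654025-34654085, plus strand: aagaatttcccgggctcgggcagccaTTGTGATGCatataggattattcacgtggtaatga
Prdm14, intron of the lncRNA gene Gm39592, chr1:13094758-13094818, plus strand: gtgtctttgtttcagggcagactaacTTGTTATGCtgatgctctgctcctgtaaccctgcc
miR-290 genes, intergenic, chr7:3213688-3213748, plus strand: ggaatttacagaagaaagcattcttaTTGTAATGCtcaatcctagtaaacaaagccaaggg
Cd9, intron, chr6:125442697-125442757, plus strand: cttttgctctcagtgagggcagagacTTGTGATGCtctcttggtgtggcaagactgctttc
Macf1, intron, chr4:123653628-123653688, minus strand: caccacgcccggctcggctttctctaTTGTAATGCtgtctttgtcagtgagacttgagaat
Epha4, intron, chr1:77452829-77452889, plus strand: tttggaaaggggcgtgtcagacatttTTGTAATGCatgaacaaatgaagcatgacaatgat
Lefty1, promoter of the lncRNA gene Gm39715 within Lefty1, chr1:180937985-180938044, plus strand: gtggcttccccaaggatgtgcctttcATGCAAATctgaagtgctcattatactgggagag
Tbx3, intron, chr5:119668652-119668711, minus strand: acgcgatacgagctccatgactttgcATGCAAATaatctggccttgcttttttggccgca
Tet1, intron, chr10:62902983-62903042, minus strand: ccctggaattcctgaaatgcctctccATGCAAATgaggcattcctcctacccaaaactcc
Jarid2, intergenic, chr13:44712011-44712070, minus strand: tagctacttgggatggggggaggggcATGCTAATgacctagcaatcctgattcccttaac
Etv5, intron, chr16:22414534-22414593, plus strand: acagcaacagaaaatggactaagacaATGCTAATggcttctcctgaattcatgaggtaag
Enc1, intergenic, chr13:97276672-97276731, minus strand: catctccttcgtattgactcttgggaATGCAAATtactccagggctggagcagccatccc

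The first 6 of these hold a SOX-OCT composite and the other 6 an octamer without one. This split does not reflect their frequency, since 339 clustered peaks held an octamer and 81 a composite. A composite followed by AAAT holds an octamer too and counts under both. A match of letters is a description and does not show that OCT4 touched that base.

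A typical cluster was a stretch of about 40 kb with 9 peaks. The median span was 41 kb (quartiles 31.2 and 51.5 kb, range 9.57 to 142 kb), the median density 2.38 peaks per 10 kb (range 1.26 to 8.36), and peaks covered a median of 13.2% of the span (range 5.72 to 52.5%). Neighbouring peaks within clusters lay a median of 3071 bp apart. The median gap between all neighbouring autosomal peaks was 17413 bp, and 42.6% of those gaps were within the joining distance. Since the rule allows no gap over 12.5 kb in a cluster, the order of these medians was fixed by the rule. All spans together came to 15.7 Mb, 0.637% of the autosomes. Of the 363 clusters, 120 held exactly 8 peaks, 254 held 8 to 10, 34 held 15 or more and 9 held 20 or more. Just outside the limit stood 189 joined sets of 7 peaks, with a median span of 26.9 kb against 33.1 kb for the sets of 8.

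**Figure D1:**
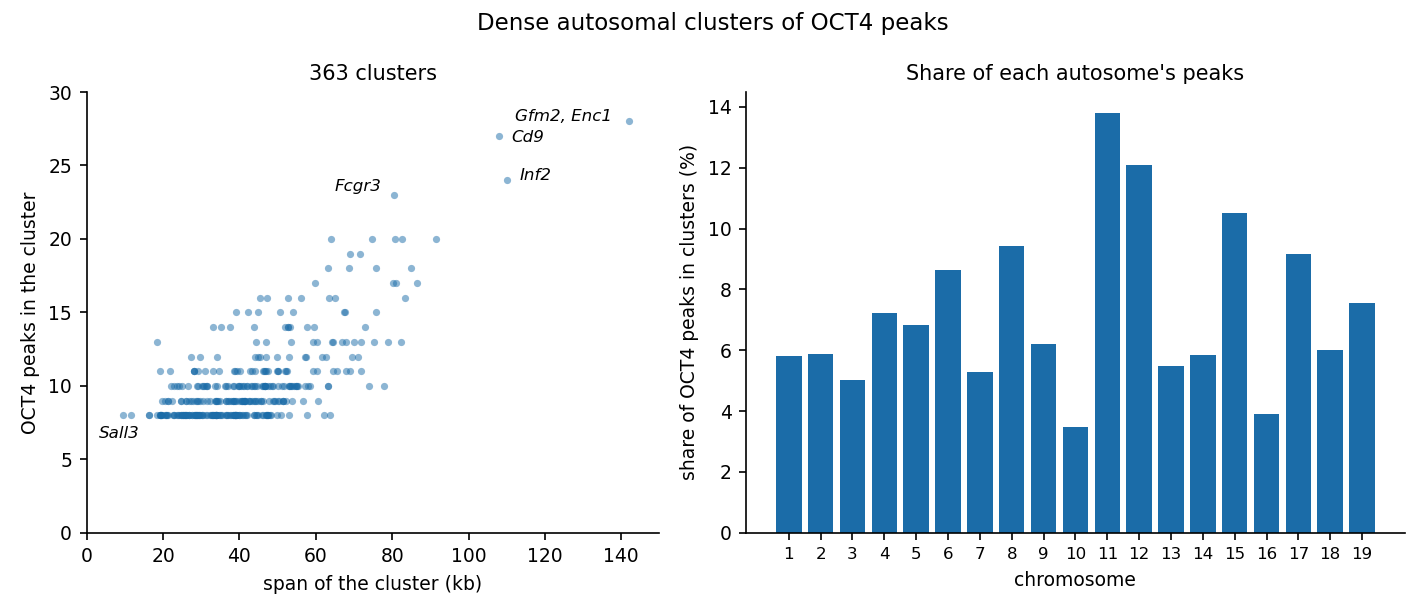
Left, the number of OCT4 peaks in each of the 363 clusters against the span of the cluster in kb, 1 point per cluster. Right, the share of each autosome's peaks under 1500 bp that lay in clusters, with chromosome 11 at 13.8% and chromosome 10 at 3.49%.

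Clusters were spread unevenly over the chromosomes. Chromosome 11 held 55 of them, 45.1 per 100 Mb, and 13.8% of its peaks were clustered, followed by chromosome 12 with 27 clusters and 12.1% of its peaks and chromosome 15 with 20 clusters and 10.5%. The lowest shares were 3.49% on chromosome 10, with 9 clusters, and 3.91% on chromosome 16, with 6. Chromosome 11 also had the most peaks per Mb, 33.1, while the other autosomes had 16.0 to 23.8. The median distance from a cluster to the next on its chromosome was 870 kb, and 58 clusters lay within 100 kb of another. By the same rule the X chromosome held 8 clusters with 74 peaks, which are outside the group described here.

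Some neighbouring peaks lay so close that they could be pieces of 1 region. In 464 of the 3383 gaps between clustered neighbours (13.7%) the distance was 500 bp or less. When intervals at most 500 bp apart were merged into 1 peak before the width limit was applied, the rule gave 213 clusters with 2121 peaks. With the merging after the width limit, so that no merged interval was lost for its width, it gave 260 clusters with 2613 peaks. Some of the wide peaks that the rule set aside lay in the same places. Of the 1150 autosomal peaks of 1500 bp or more, 110 (9.57%) were inside the span of a cluster, in 92 clusters. Of the autosomal peaks under 1500 bp, 7.44% were in clusters.

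None of the 12 clusters with the most peaks lay within 100 kb of a gene of the lists described below. The cluster of most peaks and longest span, 28 peaks over 142 kb at chr13:97179019-97320733, covered Enc1, encoding a kelch-family actin-binding protein, and reached the end of Gfm2, a mitochondrial translation factor. Of its 28 peaks 18 were intergenic, 5 intronic, 3 at promoters and 2 in exons, and 3 held an octamer. Next came 27 peaks over 108 kb at chr6:125409361-125516984 around Cd9, which encodes a tetraspanin of the cell surface. There 12 peaks were intronic and 8 intergenic, and a composite was found in 1 peak. Most of the intronic peaks lay outside Cd9, and the cluster also overlapped the lncRNA genes Gm32673, Gm28809 and Gm26728. The formin gene Inf2, with Adssl1 and Siva1, had 24 peaks over 110 kb on chromosome 12, of which 15 were intergenic. Each of these 3 clusters, also the longest, mixed promoter, exonic, intronic and intergenic peaks.

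Below these 3 stood a group of clusters of 18 to 23 peaks. At chr1:171033783-171114255, 23 peaks surrounded Fcgr3, an Fc receptor gene, and Cfap126, a cilium gene. On chromosome 8, 20 peaks ran over 80.8 kb through Isyna1, the inositol synthase gene, Ssbp4, Lrrc25, Gdf15, Pgpep1 and Lsm4, with 5 at promoters and 7 in exons. On chromosome 5, 20 peaks over 74.7 kb covered the small heat shock protein gene Hspb8 and reached into Srrm4, a splicing regulator of neurons, and 4 held an octamer. Along 2 long genes, Macf1 (a cytoskeletal linker) and Foxn3 (a forkhead factor), there were 19 peaks each, 13 and 14 of them intronic. On chromosome 9, 18 peaks over 85 kb ran through 11 protein-coding genes including the hyaluronidase genes Hyal1, Hyal2 and Hyal3, and 8 of these peaks were at promoters.

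**Figure D2:**
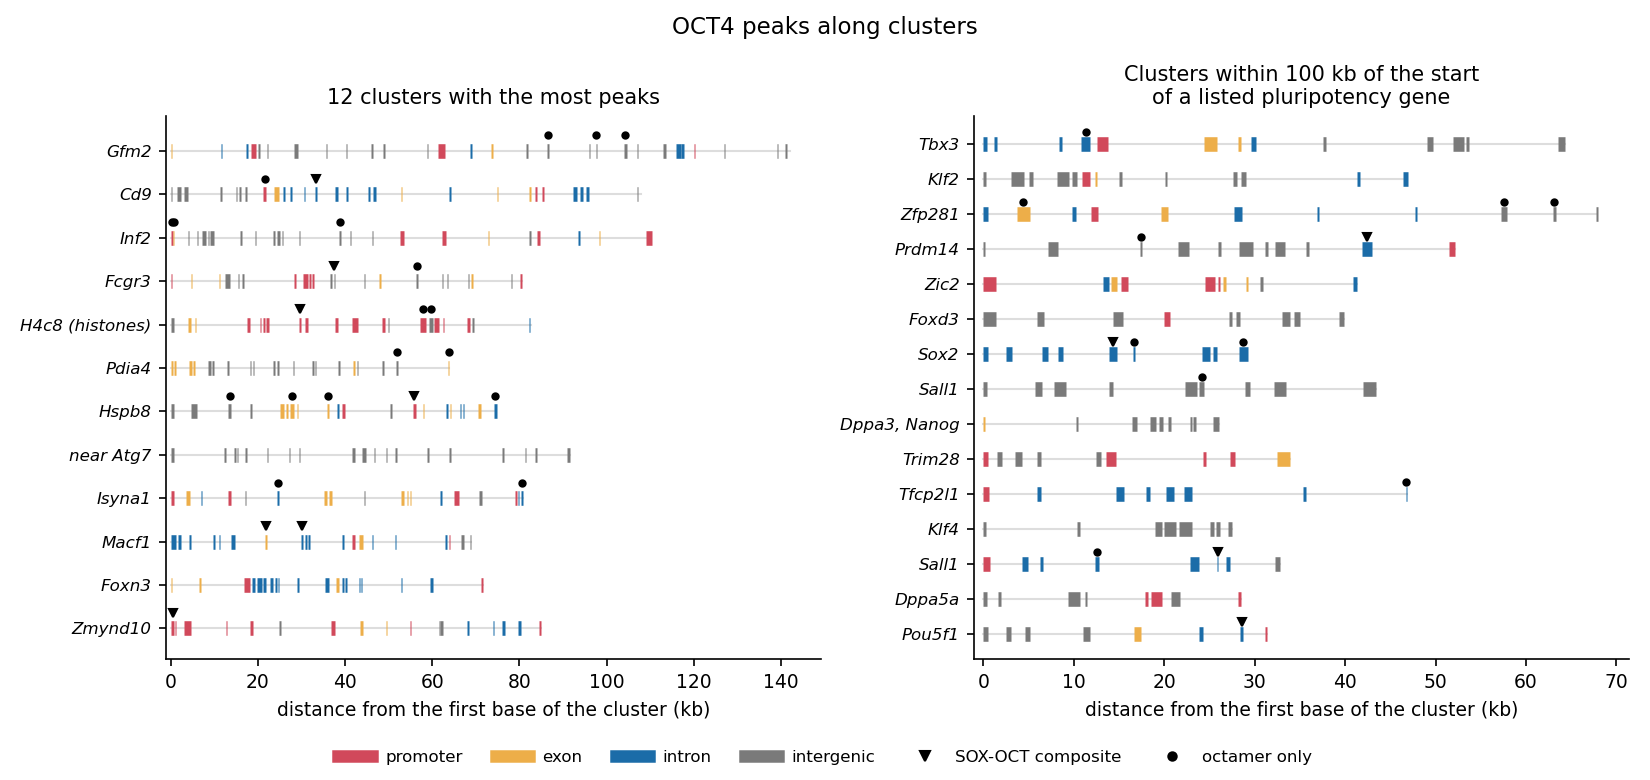
Peaks along clusters as blocks drawn to scale, at their distance in kb from the first base of the cluster, coloured by annotation, with a triangle over a peak holding a SOX-OCT composite and a dot over a peak holding an octamer only. Left, the 12 clusters with the most peaks, each named by 1 gene. Right, the 15 clusters within 100 kb of the start of a listed pluripotency gene, which held 8 to 13 peaks. Wide peaks set aside by the rule are not drawn.

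The densest clusters were short. Sall3, a zinc finger factor related to Sall1, had 8 peaks in 9.57 kb (8.36 peaks per 10 kb), which covered 52.5% of the span. Epha4, an ephrin receptor gene, had 13 peaks in 18.5 kb (7.04 per 10 kb), all of them intronic, and 5 of the gaps between them were 500 bp or less. Anp32a, a nuclear phosphoprotein gene, had 8 peaks in 11.5 kb, and Vangl1, a planar cell polarity gene, 11 peaks in 21.7 kb. Tet1, whose product oxidises 5-methylcytosine, had 11 peaks in 19.2 kb, 8 of them intronic and 2 at promoters. A cluster of 8 peaks in 16.4 kb covered Plin3, Arrdc5 and Uhrf1, the last of which directs maintenance DNA methylation. In 5 of these 6 clusters (all but Epha4) some peak lay at a promoter or in an exon.

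The clusters' genes were then compared with 6 gene lists. A gene was counted as near a cluster when its start lay within 100 kb of the span. Among all 20558 autosomal protein-coding genes, 1853 were near a cluster by this measure, which is 9.01%, and the bodies of 714, or 3.47%, overlapped a cluster. These shares are the background for the counts of each list, and no test was made, since the lists were chosen with earlier results of these data known and genes differ in the number of peaks around them. The median number of autosomal peaks within 100 kb of a gene start was 6 over all protein-coding genes and over the lineage list, 10 to 12 over the chromatin, signalling and housekeeping lists, 13 over the pluripotency list and 14 over the microRNA list.

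Of 34 genes for pluripotency factors and their partners, 15 (44.1%) were near a cluster and the bodies of 11 (32.4%) overlapped a cluster. With intervals at most 500 bp apart merged before the width limit, 9 of the 34 (26.5%) were near a cluster and 6.06% of all protein-coding genes, and with the merging after it 10 (29.4%) and 6.89%. The count also moved with the smallest size allowed, to 25 (73.5%) at 6 peaks, where 18.2% of all genes were near a cluster, and to 5 (14.7%) at 10 peaks, where 4.79% were. The core factor Sox2 lay inside a cluster of 9 peaks over 29.2 kb, all in introns of the overlapping lncRNA gene Sox2ot, 2 of them with an octamer and 1 with a composite. Pou5f1 itself lay in a cluster of 8 peaks over 31.4 kb that also covered Tcf19 and the start of Cchcr1, had 1 peak with a composite and held 1 wide peak. Nanog, a homeodomain factor of the core network, and Dppa3, a maternal factor expressed in the germ line, flanked a cluster of 9 peaks over 26.1 kb, 37.1 and 17.8 kb from their starts. Of these 9 peaks 8 were intergenic, and none held an octamer or a composite.

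Other genes of the pluripotency list had clusters of like size. Klf2 had 13 peaks over 46.9 kb, 9 of them intergenic, and Klf4 had 8, all intergenic, 49.8 kb from its start. Prdm14, a PR-domain repressor, lay 22.6 kb from 11 peaks, of which 9 were intergenic and 1 held a composite. Tfcp2l1, a grainyhead-family factor, had 8 peaks, 7 of them in introns and 1 at a promoter. Tbx3, a T-box factor, had 13 peaks over 64.3 kb together with 2 wide peaks. Clusters also lay within 100 kb of Sall1 (2 clusters, with 9 and 8 peaks), Zic2 (10), Foxd3 (9), Zfp281 (11), Dppa5a (8) and Trim28 (9). The nuclear receptor gene Esrrb overlapped a cluster of 8 peaks, although its start lay 129 kb away and was not counted as near. The rule for naming clusters kept those with more peaks, so the clusters at Pou5f1, Klf4, Dppa5a and Esrrb, the 8-peak cluster at Sall1, and those at Bmp4, Dnmt3b, Gpx5, H2ac12 and Ifnz below were named after their values were seen.

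Among 29 signalling genes 8 were near a cluster (27.6%) and 7 overlapped a cluster. Lefty1 and Lefty2, which encode inhibitors of Nodal, shared 13 peaks over 71.9 kb with Tmem63a, and a peak inside Lefty1, at the start of the lncRNA gene Gm39715, held an octamer. Tdgf1, the Nodal co-receptor, had 9 peaks over 27.4 kb, and the ligand gene Bmp4 had 8. Downstream of BMP, Id1 lay in a cluster of 10 peaks with H13 and Mcts2, and Id3 lay 16 kb from 8 peaks. Socs3, the feedback inhibitor of the LIF pathway, had 15 peaks over 42.3 kb, 13 of them intergenic, and Etv5, an ETS factor downstream of FGF signalling, had 16 over 47.3 kb, 11 of them intronic.

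Among 25 chromatin regulators 5 (20%) were near a cluster and 4 overlapped a cluster. Besides Tet1 and Uhrf1, these were Dnmt3b, a de novo DNA methyltransferase, with 8 peaks, Jarid2, a Polycomb cofactor, with 12 peaks of which 11 were intergenic, and Ezh2, a histone methyltransferase, 55.9 kb from a cluster of 14 peaks in repeated sequence described below. Of 25 lineage factors 2 (8%) were near a cluster, close to the 9.01% of all protein-coding genes, and both overlapped a cluster. These were Eomes, at a cluster of 9 peaks including 4 at promoters, and Tfap2a, with 10 peaks including 3 at promoters. The start of Eomes lay 0.322 kb outside its cluster, which held the start of Golga4 and overlapped the lncRNA genes Gm33408 and Gm33460. Of 10 microRNA genes 3 were near a cluster, and all 3 (Mir290a, Mir291a and Mir295) belong to 1 locus, the miR-290 genes that are strongly expressed in mESCs, where 15 peaks covered 24.6% of 44.9 kb. Of 20 housekeeping genes 6 (30%) were near a cluster but the bodies of only 2, Actb among them, overlapped a cluster, so a share well above the background was also seen in a list not chosen for stem cell roles.

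**Figure D3:**
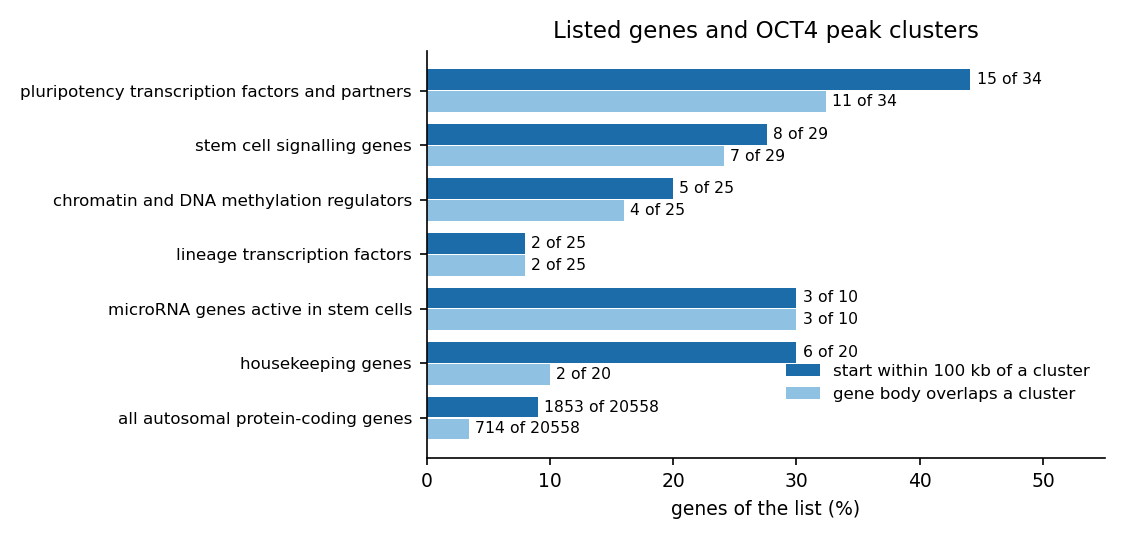
Share of the genes of each list whose start lay within 100 kb of a cluster (dark bars) and whose body overlapped a cluster (light bars), with the counts. The pluripotency list stood at 44.1% and 32.4%, the housekeeping list at 30% and 10%, and all autosomal protein-coding genes at 9.01% and 3.47%.

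Over all clusters, gene-rich and gene-poor settings both occurred. A protein-coding gene start lay inside 272 of the 363 clusters, 3 or more lay inside 87, and 155 clusters overlapped exactly 1 protein-coding gene body. In 44 clusters no protein-coding body was overlapped, and in 13 neither a protein-coding nor an lncRNA body. A peak at a promoter, meaning within 500 bp of a RefSeq transcription start, was present in 307 clusters, but most peaks were promoter peaks in only 20. In 91 clusters every peak lay at a promoter or in a gene body, and in 56 no peak lay at a promoter.

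By annotation, 21.1% of clustered peaks were at promoters (791 peaks, 95% Wilson interval 19.8 to 22.5%), 6.97% in coding exons, 6.62% in other exons, 32.8% in introns and 32.5% between genes. Among the other autosomal peaks 23.8% were at promoters (23.4 to 24.2%), 4.29% in coding exons, 3.83% in other exons, 32.9% in introns and 35.2% between genes. The intervals here and below cover counting error only, and peaks are not replicates, so these are descriptions with no test. The promoter share was lower in clustered peaks on 14 of the 19 autosomes, but its order rests on the distance used: with 2500 bp in place of 500 bp it was 36.9% in clustered and 32.3% in other peaks. Clustered peaks lay closer to transcription starts at the median, 5.22 kb against 9.30 kb. They were also wider, with a median width of 462 bp (quartiles 315 and 695) against 412 bp (301 and 614), higher on all 19 autosomes, and richer in G and C, with a median of 51.4% against 49%, higher on 18. The share of soft-masked (repeat) bases was 10.7 and 10.5% at the median. These traits were not particular to clusters. Peaks in sets of 7, just below the limit, had medians of 5 kb, 456 bp and 51.2% GC, and 21.8% were at promoters. Peaks without a neighbour within 12.5 kb had medians of 17.6 kb, 395 bp and 47.8% GC, and 22.5% were at promoters.

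OCT4's own elements were found less often in clustered peaks. In the central 300 bases, an octamer was present in 339 of 3746 clustered peaks, 9.05% (8.17 to 10.0%), and in 12.2% of the other autosomal peaks (11.9 to 12.5%). A SOX-OCT composite was present in 81 clustered peaks, 2.16% (1.74 to 2.68%), and in 4.15% of the others (3.97 to 4.33%). Windows of the same length 1000 bp to either side of clustered peaks, where they touched no peak, held an octamer in 1.79% (1.48 to 2.15%) and a composite in 0.606% (0.440 to 0.834%). Beside other peaks the shares were 2.61% (2.51 to 2.72%) and 0.715% (0.661 to 0.773%), so the octamer was less frequent in the surroundings of clustered peaks too. Both elements were more frequent at the centre of peaks than beside them in both groups. Along the chromosomes, the share of clustered peaks was the lower one on 18 of 19 autosomes for the octamer, chromosome 19 being the exception, and on 18 of 19 for the composite, with chromosome 16 the exception.

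**Figure D4:**
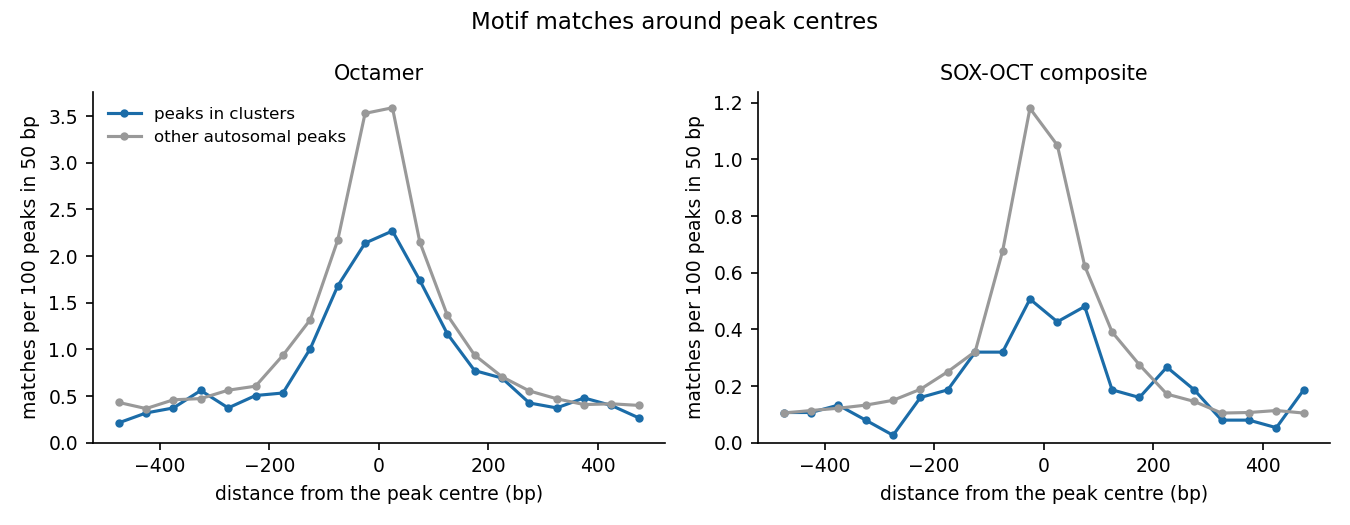
Octamer (left) and SOX-OCT composite (right) matches per 100 peaks in bins of 50 bp, by distance from the peak centre, for peaks in clusters (blue) and other autosomal peaks (grey). Both groups rose towards the centre, to 2.27 octamers per 100 clustered peaks and 3.59 per 100 other peaks in the highest bin.

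Below the limit of 8, both shares were lower in each larger class of joined sets. Octamers were present in 13.6% of peaks without a neighbour within 12.5 kb, 12.8% of peaks in pairs, 10.6% in sets of 3 to 4 and 9.76% in sets of 5 to 7. The composite went from 5.24% through 3.98%, 3.35% and 2.48%. At the limit itself the octamer share was not lower inside than outside. It was 8.16% (6.81 to 9.76%) of peaks in sets of 7 and 10.4% (8.64 to 12.5%) of peaks in sets of 8, while the composite share was 2.80% (2.04 to 3.83%) and 2.29% (1.52 to 3.45%). In sets of 15 or more the shares were 8.17% and 2.94%.

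**Figure D5:**
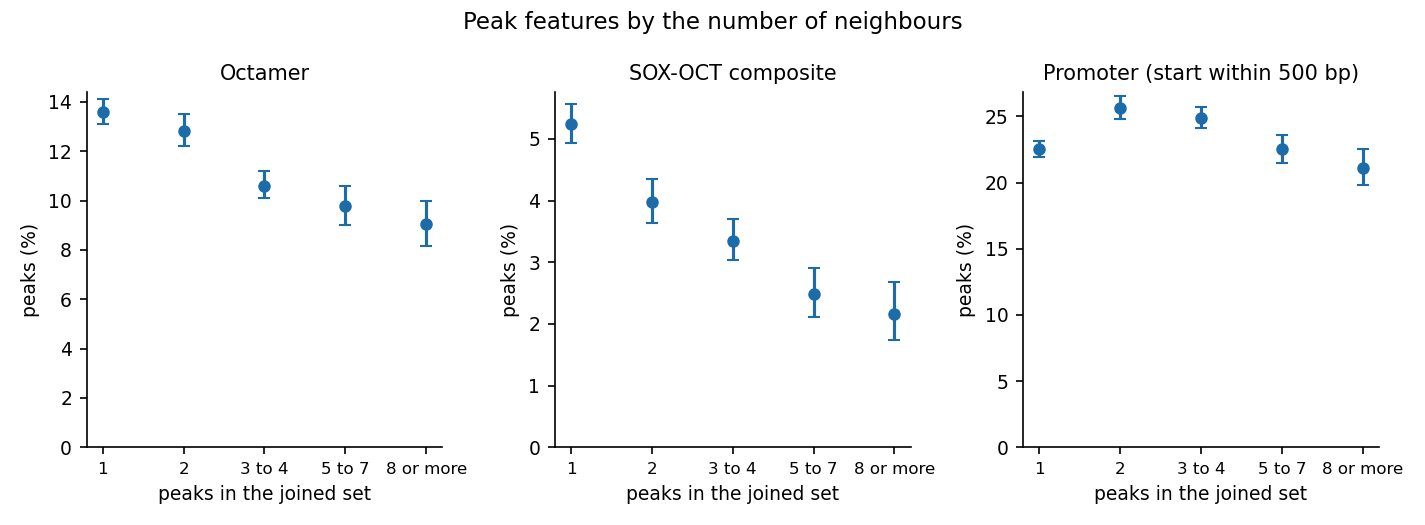
Share of peaks with an octamer, a SOX-OCT composite or a transcription start within 500 bp, by the number of peaks in the joined set, with 95% Wilson intervals as bars. The sets of 8 or more are the clusters, at 9.05%, 2.16% and 21.1%.

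Promoter content and base composition also differed between clustered and other peaks, so the shares were also given within classes of each. Away from promoters, an octamer was present in 10.4% of clustered peaks (9.31 to 11.5%) and 15% of others, and a composite in 2.50% and 5.22%. At promoters the order was the other way, and both elements were rarer. The octamer stood at 4.17% of clustered peaks (2.99 to 5.80%) and 3.46% of others. The composite stood at 0.885% of clustered peaks (7 peaks, 0.429 to 1.82%) and 0.720% of others. For both elements at promoters the interval of clustered peaks included the share of the others. Within 4 classes of GC content the octamer share of clustered peaks was the lower one in each. It was 13.9% against 17.2% at 40 to 50% GC and 7.74% against 9.46% at 50 to 60% GC. At 30 to 40% GC it was 15.9% of 69 clustered peaks (9.14 to 26.3%) against 21% of others. At 60 to 70% GC it was 1.08% (0.496 to 2.34%) against 1.46%. In both of these classes the interval of clustered peaks included the share of the others. For the composite the order held in 3 classes. At 30 to 40% GC this rested on 1 match in clustered peaks (1.45%, 0.256 to 7.76%, against 11.1%). At 60 to 70% GC the shares were 0.360% against 0.322%, where only 2 clustered peaks had a match. The part of peak strength in these differences was not tested, as the list holds no heights.

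Cluster by cluster, an octamer was present in at least 1 peak of 208 clusters and in none of the peaks of 155, and in 3 or more peaks of 31. A composite was found in 73 clusters, never in more than 2 peaks of any. The highest count was 5 octamer peaks of 9 in the cluster at Pipox, a sarcosine oxidase gene, which was named after its value was seen. Words of other factors, also chosen after the data were seen, had mixed orders. The ESRRB word TCAAGGTCA was present in 2.78% of clustered (2.3 to 3.35%) and 2.11% of other peaks (1.99 to 2.25%), and the KLF words GGGCGTGG and GGGTGTGG in 11.4% and 8.83%. The E-box CACGTG stood at 8.78 and 6.85%, and the CTCF core words AGGGGGCGC and AGGTGGCGC at 1.52 and 1.09%. The same words were also more frequent in windows beside clustered peaks than beside other peaks, with 1.2 and 0.746% for ESRRB, 5.21 and 3.38% for KLF, 4 and 3.77% for the E-box and 0.295 and 0.189% for CTCF. The YY1 word AANATGGC was rarer in clustered peaks, 4.14% (3.55 to 4.82%) against 6.06% (5.85 to 6.28%), and stood at 5.19% in windows beside clustered and 5.55% beside other peaks. In the GC classes from 40 to 70% the YY1 word stood at 4.67, 3.81 and 3.96% of clustered peaks. In other peaks it stood at 4.42, 5.16 and 13.4%. The KLF words stood at 9.4, 12 and 16% of clustered and 7.29, 12.2 and 10.3% of other peaks there. At promoters the E-box stood at 9.23 and 10.7% and CTCF at 2.65 and 2.85%. Away from promoters the shares were 8.66 and 5.67% and 1.22 and 0.547%. The ESRRB share was 2.77% in sets of 5 to 7 peaks. Each word was read on both strands.

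A small set of clusters lay over transfer RNA (tRNA) and histone genes, which are themselves arranged in genomic clusters. Of 386 autosomal tRNA genes in RefSeq, 88 (22.8%) lay inside cluster spans, which made up 0.637% of the autosomes. They were in 14 clusters, 10 of which held 3 or more, led by the Fcgr3 cluster with 25 and a cluster of 11 peaks near Gpx5 on chromosome 13 with 12. A tRNA gene was overlapped by 38 clustered peaks (1.01%, 0.740 to 1.39%) and by 80 other peaks (0.172%, 0.138 to 0.214%). Only 1 of the 38 held an octamer. The tRNA genes are transcribed by RNA polymerase III from promoter boxes within the gene, and 2 of those under peaks of the Fcgr3 cluster are shown with the B box word GTTCGANNC in capitals, written along the gene. That word was present in 2% of clustered peaks, 1.09% of other peaks, 4.49% of windows beside clustered peaks and 2.34% of windows beside other peaks. It was not limited to tRNA genes. Of the 75 clustered peaks with the word, 18 overlapped a tRNA gene and 57 did not. Among the 57 were 6 peaks of the Pdia4 cluster and 5 of the cluster over Gm40369 to Gm40363, both described below.
Asparagine tRNA gene n-TNgtt6, chr1:171033942-171034015, minus strand: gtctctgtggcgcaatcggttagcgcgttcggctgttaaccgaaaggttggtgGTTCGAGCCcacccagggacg
Leucine tRNA gene n-TLcag3, chr1:171038614-171038696, plus strand: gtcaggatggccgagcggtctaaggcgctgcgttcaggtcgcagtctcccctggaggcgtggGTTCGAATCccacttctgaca

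The histone genes (symbols beginning H1f, H2ac, H2bc, H3c or H4c) were concentrated in the same way. Of 67 on the autosomes 20 lay in 2 clusters of chromosome 13. At chr13:23513395-23595959, 20 peaks over 82.6 kb covered 15 histone genes from H4c8 to H2bc6 and 8 tRNA genes, and 13 of these peaks were at promoters, the most of any cluster. The other, 10 peaks, covered H2ac12, H2bc12, H4c9, H2ac11 and H2bc11 and 3 tRNA genes.

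Another set of clusters lay in sequence that repeats itself. In 14 clusters, 82 peaks shared at least 50% of their 20-base words with another peak of the same cluster. Of these 82 peaks 53 were in 4 clusters: 19 of 20 peaks in a cluster near Atg7 at chr6:114545548-114637148, which overlapped no protein-coding or lncRNA gene, 15 of 20 and 11 of 14 peaks in neighbouring clusters at chr6:47739638-47803527 (reaching into Pdia4) and chr6:47651177-47686517 (over 6 predicted genes), and 8 of 10 over the interferon zeta gene Ifnz and 11 predicted genes on chromosome 4. The histone clusters held 9 more. A stretch of 60 bases that recurs among the peaks of each chromosome 6 cluster shows the kind of sequence, each written on the plus strand. For the predicted genes Gm40369 to Gm40363, the copy shown lies between peaks and not inside one.
Near Atg7, chr6:114545816-114545875, plus strand: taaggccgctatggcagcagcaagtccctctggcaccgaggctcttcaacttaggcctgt
Pdia4, chr6:47740080-47740139, plus strand: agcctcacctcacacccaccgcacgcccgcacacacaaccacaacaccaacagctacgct
Predicted genes Gm40369 to Gm40363, chr6:47651609-47651668, plus strand: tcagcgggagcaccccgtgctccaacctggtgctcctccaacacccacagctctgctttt

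The first stretch was present in 17 of the 20 peaks and 33 times in the span, at a median spacing of 2458 bp, and 52 times on the autosomes. The second was in 8 of 20 peaks, with 8 copies 4360 bp apart at the median, and the third in 7 of 14 peaks, with 9 copies 4322 bp apart. All 3 clusters also overlapped regions that were called in input chromatin, 5, 2 and 1 of them. Over all, 8 clusters overlapped 16 of the 741 autosomal input regions. How reads were placed among such copies, and its part in these peaks, was not tested. Without the 14 clusters that held near-identical peaks, 349 clusters and 3561 peaks remained, with an octamer share of 9.18% and a composite share of 2.13%.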

How the data were processed

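OCT4, YY1 and input chromatin were sequenced from the iXist-ChrX-Cast line before and after 6 days of doxycycline. Per the study's methods and the submitters' notes, the authors aligned reads to N-masked mm10 with Bowtie2 2.3.5.1, removed duplicates, called peaks in each library with MACS2 (q below 0.01), kept as consensus the regions where peaks of at least 2 libraries overlapped, and subtracted regions called in input. The deposited OCT4 consensus list holds positions only. It has no score, signal or count, and deposited allele-specific tables cover the X chromosome and were not used. Where a consensus comes from overlaps, 1 region can be split into several narrow intervals.

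Peaks on chromosomes 1 to 19 under 1500 bp were joined at gaps of at most 12500 bp, and joined sets of 8 or more were kept. Members and gene lists were chosen with earlier results of these data known, as was the 100 kb distance. Annotation was RefSeq GRCm38.p6, and 143 listed genes were all found, 1 by a synonym. Promoters lay within 500 bp of a start. Motifs were read on both strands in the central 300 bases, and windows beside peaks lay 1000 bp away. Near-identical peaks shared at least 50% of their 20-base words with another peak of the cluster. That measure, the tRNA and histone counts and the words other than octamer and composite were chosen after the data were seen. Named clusters were, by rule, the 12 with the most peaks, the 6 longest, the 6 densest and up to 30 near listed genes. Scripts ran in Python 3.11.15 with numpy 2.4.6 and pandas 2.3.3, and were tested on simulated peak lists with known clusters. No test was run, since no value per library exists. Wilson intervals (95%) cover counting error only. Some genes that clusters overlap are not reported here.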

Additional observations from a re-analysis of the deposited data

How the results depend on the processing

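No paired analysis was possible because the autosomal list pools the libraries and carries no column per sample, and for the same reason no replicate could be left out. The number of clusters follows the rule's limits. Joining at 10 kb gave 238 clusters with 2414 peaks, and at 20 kb 779 with 8737 and a median span of 61.7 kb. A limit of 6 peaks gave 873 clusters, 6995 peaks and 25 pluripotency genes nearby (18.2% of all genes), and a limit of 10 gave 174, 2165 and 5 (4.79%), with 19.6% promoter peaks. Merging intervals at most 500 bp apart before the width limit gave 213, 2121 and 9 (6.06%), with 23.0% promoter peaks among the others. Octamer shares in clustered and other peaks were 7.18 and 10.2% in the central 200 bases, 12.4 and 15% in whole peaks and 5.77 and 7.39% for ATGCAAAT alone. Composite shares were 1.63 and 3.39% in 200 bases and 3.18 and 5.16% in whole peaks. Promoter shares were 25.5 and 26.6% within 1000 bp and 36.9 and 32.3% within 2500 bp, where the order turned. The octamer share was lower in clustered peaks in 11 of 11 settings, the composite share in 10 of 10 and the promoter share in 9 of 10. Leaving out clusters that overlap input regions gave 355. Chosen after seeing the data were the shares of those 355 (octamer 9.03%, composite 2.22%), the 349 clusters without near-identical peaks (9.18 and 2.13%) and the merging after the width limit, which gave 260 clusters. The number of reads behind a peak is unknown, so depth limits every count here.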
